A study of Mus musculus with 9 samples.

Results

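The genes described here are the mouse potassium channel genes with a Kcn symbol, chosen by name alone. A row was taken when the symbol of its Ensembl identifier was Kcn followed by 1 to 3 letters and a number, and when the gene was annotated as protein-coding. The rule found 92 genes among the 54838 identifiers of the table. They comprise 40 pore-forming subunits of voltage-gated (Kv) channels, 15 inward rectifiers (Kir), 14 two-pore channels, 8 genes of the calcium-activated and Slo channels, and 15 auxiliary subunits that form no pore of their own. The Slo genes Kcnt1 and Kcnt2 (sodium-activated) and Kcnu1 (pH-sensitive) were placed with the calcium-activated genes by descent.

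Counts came from 9 libraries, 3 each labelled overlap, c-fos and mCHerry. The title concerns neurons of the basolateral amygdala in visceral pain and itch. The design text names CRD, His and double-labelled cells without tying these names to c-fos or mCHerry, so the label names are kept. The genotype field of the labels holds only these group names, where c-fos is the product of Fos, an activity-induced gene of neurons, and mCHerry is the spelling of a red fluorescent protein. The sources used here do not give strain, treatment, age, sex, number of animals or number of captured cells. What all groups share is PFA-fixed frozen tissue, laser capture and Smart-3SEQ, which sequences the 3′ ends of polyadenylated RNA. Nothing ties replicates to separate animals, so errors and p-values cover only the spread among the deposited libraries, which may be technical.

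Potassium channels let potassium leave or enter the cell and thereby set the resting potential, the shape of the action potential and the rate of firing. Kv channels open on depolarisation, Kir channels pass current near rest, two-pore channels carry leak current, and calcium-activated channels respond to calcium that enters during a spike. Auxiliary subunits change the gating and the surface expression of the pore-forming ones. In neurons of the amygdala and cortex, these currents are known for spike repolarisation, afterhyperpolarisation and spike-frequency adaptation.

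Total counts ran from 90091 (overlap 1) to 429317 (mCHerry 2). A floor of 3 counts equalled 33.3 CPM (a library's counts scaled to a common total) in the shallowest library and 6.99 CPM in the deepest. The labels name spermatocytes and their extraction text names testis, whereas the series title names the amygdala. Of the meiotic markers, Sycp1, Spo11 and Stra8 were at 0 in all libraries and the list of 10 summed to 219 counts, while the glutamatergic neuron markers Slc17a7 and Camk2a alone had 549 and 611 counts. Libraries overlap 1 and mCHerry 3 stood apart by insulin transcripts (Ins1 plus Ins2), with 19647 CPM in overlap 1 and 8106 CPM in mCHerry 3 against 247 to 990 CPM in the other 7. Glial markers had counts too, 9 of 10 oligodendrocyte and all 10 astrocyte genes. Oligodendrocyte markers summed to 2464 to 4555 CPM in overlap, 2768 to 4220 in c-fos and 2052 to 6012 in mCHerry. Astrocyte markers summed to 766 to 1442, 907 to 1405 and 699 to 1260 CPM in that order. The oligodendrocyte sum was above that of 10 glutamatergic markers in every library. The part of glia in the Kcn values was not tested. In captured tissue of this kind, fewer cells of a type and less RNA per cell cannot be told apart.

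Of the 92 genes, 81 had at least 1 count in some library and 18 had a count in all 9. Together they held 7443 counts, 0.338% of all counts. The 11 genes at 0 were Kcna5, Kcna10, Kcng3, Kcnh6, Kcns3, Kcnk4, Kcnk18, Kcne1, Kcne3, Kcne4 and Kcnmb3. For these a count of 0 allows up to 1.36 CPM over the pooled libraries, by counting error only. Another 17 genes had between 1 and 9 counts in total. The share of genes with a count, 88.0%, compares with 74.6% of all 21921 protein-coding genes of the table.

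At an equal depth of 90091 counts, 42.1 ± 3.97 of the 92 genes were detected in overlap libraries, 42.8 ± 4.51 in c-fos and 45.1 ± 3.70 in mCHerry (SD, n = 3 each). The ranges over libraries overlapped between all groups, at 39.7 to 46.7, 39.8 to 48.0 and 41.9 to 49.1. The same thinning found 37.0% ± 2.56 of protein-coding genes in overlap, 42.7% ± 1.30 in c-fos and 38.6% ± 4.49 in mCHerry. Summed over all 92 genes, the level was 3381 ± 371 CPM of the library total in overlap, 2893 ± 256 in c-fos and 3783 ± 557 in mCHerry. Each c-fos library but c-fos 2 lay below every other library in this sum. The c-fos 2 library, at 3153 CPM, stood above overlap 1 at 3064 CPM.

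Kv subunits took the largest part of the Kcn counts in every library, and the makeup by class was broadly alike. Their share was 47.5% ± 6.52 in overlap, 55.1% ± 5.80 in c-fos and 50.2% ± 1.27 in mCHerry (SD, n = 3 each). Calcium-activated and Slo genes held 21.0% ± 7.81 in overlap, 15.6% ± 2.18 in c-fos and 20.4% ± 7.74 in mCHerry. Two-pore genes held 12.2% ± 2.13 in overlap, 14.6% ± 3.85 in c-fos and 16.0% ± 10.3 in mCHerry. The wide mCHerry spread came from mCHerry 3, where the share was 27.8%, with an exact binomial 95% interval of 24.9 to 30.9%. Kir genes held 13.2% ± 5.63 in overlap, 8.57% ± 4.10 in c-fos and 8.87% ± 2.58 in mCHerry. Auxiliary genes held 5.97% ± 3.35, 6.12% ± 2.95 and 4.50% ± 1.68 in overlap, c-fos and mCHerry. For every class, the ranges over libraries overlapped between all pairs of groups. The closest to separate were the Kv shares of 51.4 to 61.8% in c-fos and 49.5 to 51.7% in mCHerry libraries.

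**Figure D1:**
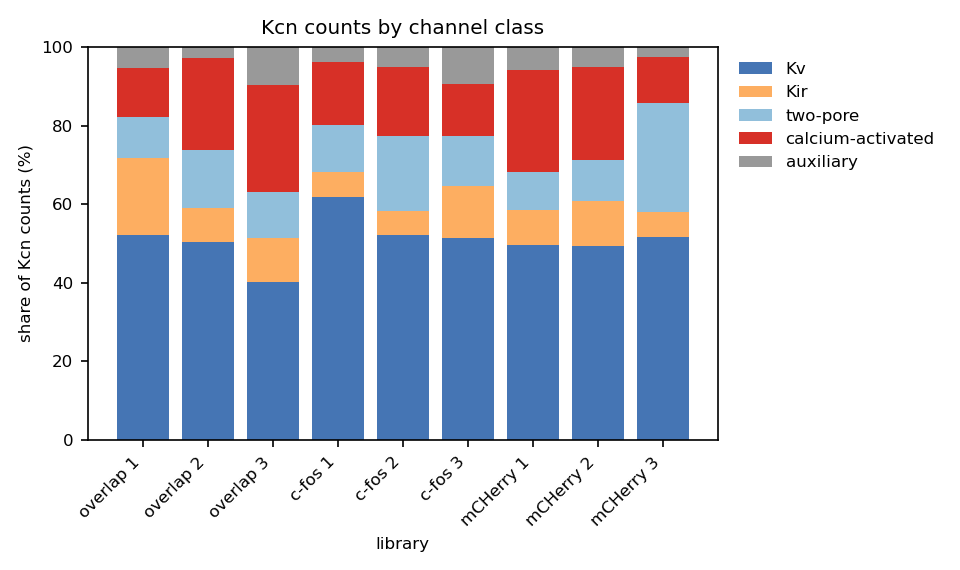
Share of Kcn counts (percent, vertical axis) taken by each channel class in each library, with overlap, c-fos and mCHerry libraries from left to right. Kv genes hold 40.1 to 61.8% in every library, and the two-pore share of 27.8% in mCHerry 3 stands above the others.

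The fit was made over all genes and all 9 libraries with edgeR's quasi-likelihood test and Benjamini-Hochberg adjustment, a gene being called at an adjusted p under 0.05. Of the 92 genes, 30 passed the filter on low counts and 62 did not. The 30 hold 81.5% of the Kcn counts and comprise 15 Kv, 4 Kir, 5 two-pore, 4 calcium-activated and Slo and 2 auxiliary genes. Levels of genes and marker lists below are TMM-scaled CPM, for which counts were divided by a library's counts in tested genes times its TMM factor, a normalization that assumes most genes to be alike between libraries. The TMM factor of mCHerry 3 was 0.650, which raises its levels, and those of the other 8 were 0.969 to 1.17. Because reads come from 3′ ends, levels were not divided by transcript length, and the order of genes by level is an order of 3′ end counts.

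No Kcn gene was called between any pair of groups in edgeR. The background share called was 0.0251% of 7959 genes in overlap against mCHerry, 0% in c-fos against mCHerry and 0% in overlap against c-fos. For any group difference it was 0.0377%, with a smallest adjusted p of 0.420 among Kcn genes, that of Kcna7. At an unadjusted p under 0.05, 4 of the 30 Kcn genes stood out in overlap against mCHerry, where 14.0% of all genes did. In c-fos against mCHerry 1 of 30 did against 7.94% of all genes, and in overlap against c-fos 1 of 30 against 5.10%. Of the 30, 4 had groups that did not overlap in overlap against mCHerry, where 17.4% of all genes did, 6.37% with overlap higher. In c-fos against mCHerry it was 1 of 30 against 15.8%, and in overlap against c-fos 3 of 30 against 12.6%. None of these counts stood above the background share. DESeq2 and limma-voom also called 0 Kcn genes in each comparison, though DESeq2 gave no adjusted p for 2 of the 30, which in overlap against mCHerry were Kcnk2 and Kcnd3. In that comparison the smallest DESeq2 adjusted p among the other Kcn genes was 0.0536, close to the threshold, and DESeq2 called 180 of 7959 genes. The standard errors of the log2 fold changes ran from 0.52 to 1.92 in overlap against mCHerry, so the data bound only large differences.

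**Figure D2:**
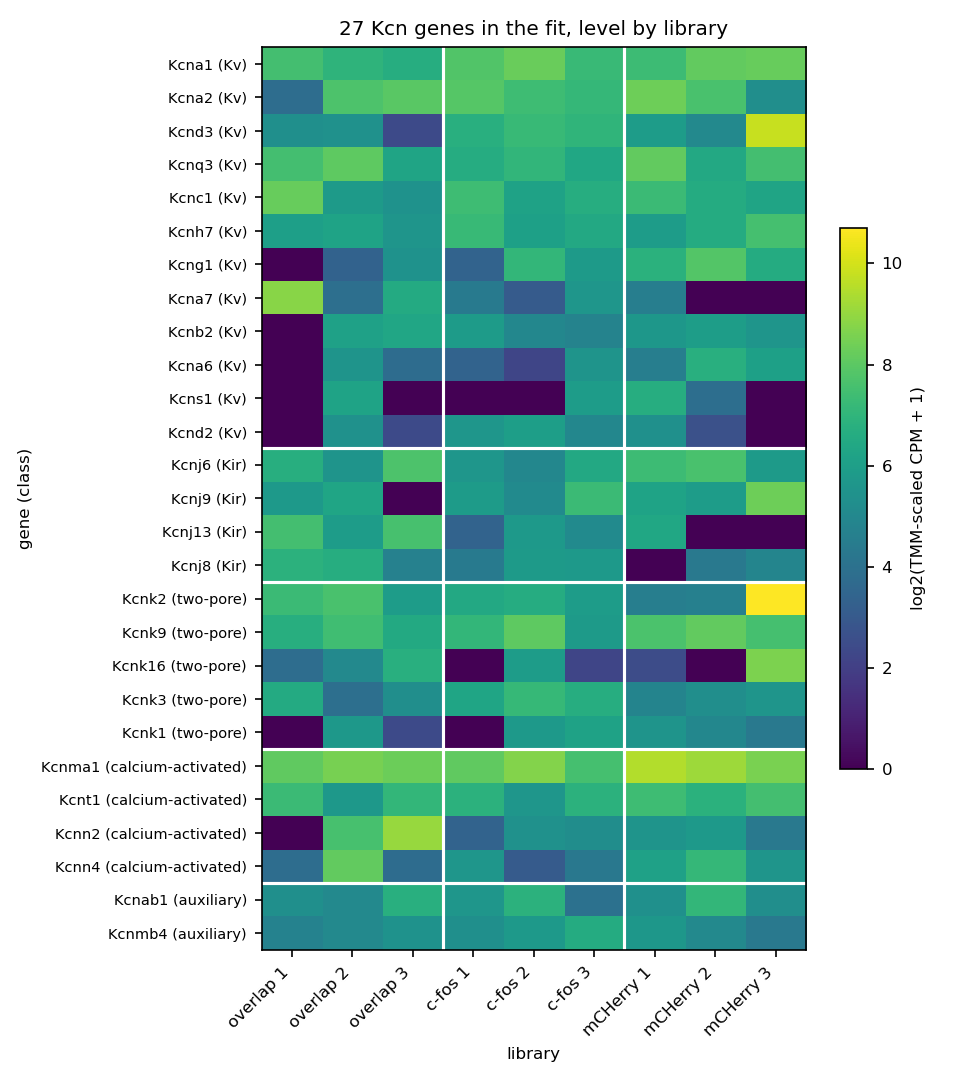
Level of 27 of the 30 Kcn genes in the fit, as log2(TMM-scaled CPM + 1), with genes in rows grouped by class and libraries in columns from overlap to mCHerry. Kcnma1 is bright in every library, while Kcnk2 and Kcnd3 are brightest in mCHerry 3.

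Among Kv genes, Shaker-type subunits were among the most counted. Kcna1, an axonal Shaker-type subunit, had 183, 125 and 102 CPM in overlap, 224, 307 and 150 in c-fos and 160, 283 and 293 in mCHerry. Its log2 fold change was -0.75 ± 0.66 (SE) in overlap against c-fos, and the groups overlapped (edgeR adjusted p = 0.982). Kcna2, which forms heteromers with Kcna1, ranged from 13.1 to 246 CPM in overlap, 139 to 234 in c-fos and 37.7 to 328 in mCHerry. The lowest Kcna2 values were in overlap 1, with 1 count, under the floor of 3, and in mCHerry 3, with 4 counts. These libraries had high insulin counts, but Kcna1 was highest within its group in each of them. A link to the insulin counts was not tested.

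Shaw-type subunits open at positive potentials and allow fast spiking. Kcnc1, one of them, had 301, 55.3 and 42.4 CPM in overlap, 166, 71.0 and 101 in c-fos and 155, 94.3 and 75.5 in mCHerry, with no separation of groups. GABAergic cells are known for Shaw-type channels. Their 12 marker genes summed to 143 to 366 CPM in overlap, 284 to 506 in c-fos and 123 to 132 in mCHerry. Of these genes 10 had a count in some library, with Dlx5 and Vip at 0. Within groups, 6 had a count in overlap, 9 in c-fos and 10 in mCHerry. The part of these cells in the Kcnc1 values was not tested.

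Shal-type subunits carry the transient A-type current. Kcnd3 had 39.2, 41.5 and 4.24 CPM in overlap libraries, 107, 150 and 128 in c-fos and 59.3, 32.3 and 896 in mCHerry. All overlap libraries lay below all c-fos libraries, while the mCHerry group spanned both. Its log2 fold change was -2.23 ± 1.16 in overlap against c-fos (adjusted p = 0.944 in edgeR), where 8.61% of all genes had overlap libraries below all c-fos libraries. Against mCHerry it was -3.55 ± 1.21, the smallest adjusted p of any Kcn gene in that comparison at 0.245. That value rested on mCHerry 3, since without it the log2 fold change was -0.75 ± 1.26. Kcnd2, the other Shal-type subunit in the fit, had 0 to 41.5 CPM in overlap, 30 to 63.6 in c-fos and 0 to 41.0 in mCHerry. Kcnd1 had 29 counts in overlap, 0 in c-fos and 23 in mCHerry and did not enter the fit. Both Kcnd2 and Kcnd3 overlap annotated transcripts on their own strand, whose reads could have been counted with them.

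The M-channel slows repetitive firing, and Kcnq3 encodes a subunit of it. Kcnq3 had 183, 267 and 76.3 CPM in overlap, 97.4, 131 and 82.6 in c-fos and 278, 86.2 and 179 in mCHerry. The groups overlapped, and the log2 fold change in c-fos against mCHerry was -0.80 ± 0.76 (adjusted p = 0.914 in edgeR). Kcnq5, another neuronal member, was outside the fit with 40 counts in overlap, of which 39 were in overlap 3, 3 in c-fos and 32 in mCHerry.

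Silent Kv subunits make no channel alone and modify channels formed by other Kv subunits. Kcng1 had 0, 9.22 and 42.4 CPM in overlap libraries, 9.74, 135 and 56.3 in c-fos and 114, 229 and 94.4 in mCHerry. Every overlap library was below every mCHerry library, with c-fos libraries between and across them. In log2 terms the fold change was -2.89 ± 1.17 in overlap against mCHerry (adjusted p = 0.299 in edgeR) and -1.80 ± 1.14 in overlap against c-fos (0.959). Leaving out any 1 library gave values from -4.53 to -2.43 for the first, the lowest without overlap 3. In that comparison 11.0% of all genes had overlap libraries below all mCHerry libraries. Kcns1 entered the fit with 59 counts in 4 libraries and had overlapping groups. Kcns2, Kcnv1, Kcnv2 and Kcnf1 were outside it, with totals of 50, 31, 38 and 17 counts, and Kcns3 and Kcng3 had none.

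Kcna7, a Shaker-type subunit best known from muscle, had the largest positive fold change in overlap against mCHerry among the 30 genes. It had 445, 13.8 and 93.2 CPM in overlap libraries, 19.5, 7.48 and 48.8 in c-fos and 22.8, 0 and 0 in mCHerry. The level in overlap 1 held 68.4% of the gene's sum over libraries, and the groups overlapped. The log2 fold change was 4.41 ± 1.57 (adjusted p = 0.264 in edgeR), 2.65 at the lowest when 1 library was left out and 2.20 ± 2.14 without mCHerry 3 and overlap 1. In overlap against c-fos it was 2.77 ± 1.42, and 1.04 ± 1.83 without overlap 1. In c-fos against mCHerry it was 1.63 ± 1.5 and ranged from 0.67 to 5.42 as single libraries were left out, the highest without mCHerry 1.

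**Figure D3:**
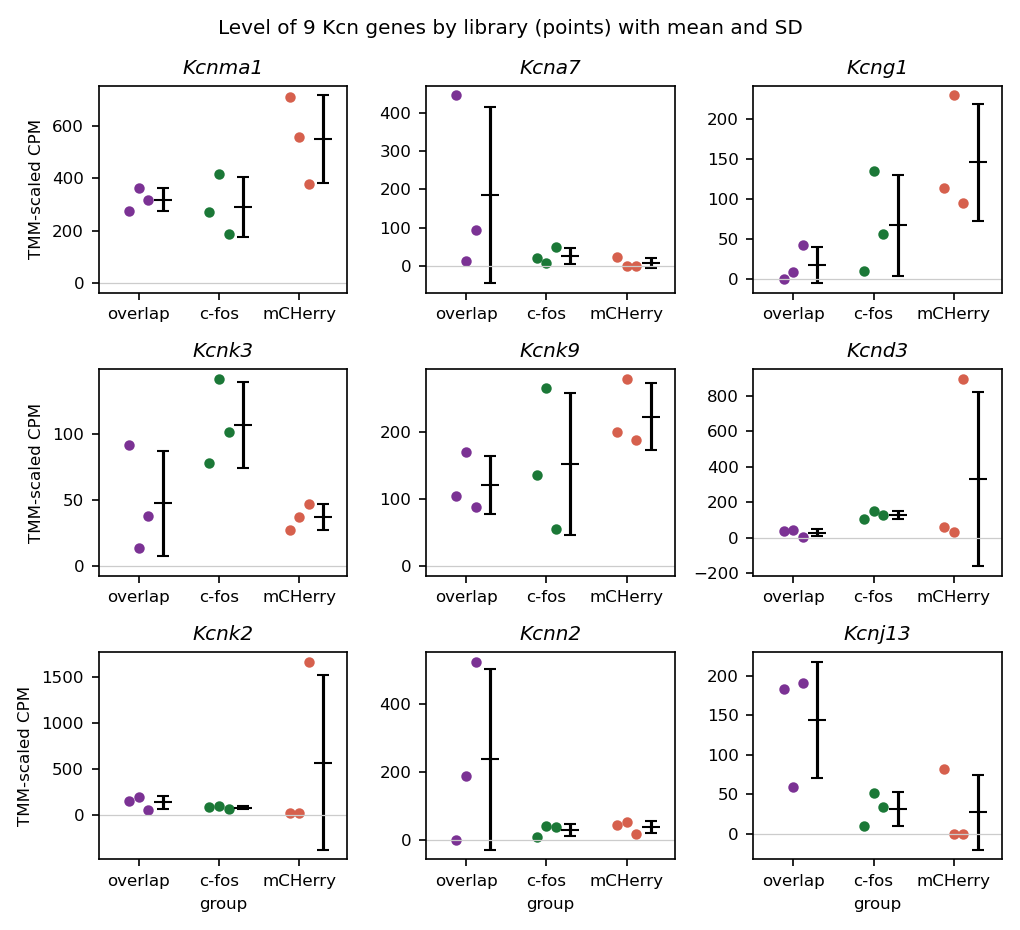
TMM-scaled CPM of 9 Kcn genes in each library (points) with the mean and SD of each group (bars), overlap, c-fos and mCHerry from left to right. Kcng1 lies lower in all 3 overlap libraries than in mCHerry, whereas the high mCHerry means of Kcnk2 and Kcnd3 come from mCHerry 3 alone, where the SD reaches below 0.

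Of the Kir genes, Kcnj6 and Kcnj9 of the G-protein-gated channels were the most counted. Kcnj6, a G-protein-gated subunit through which opioid and other receptors inhibit neurons, had 105, 46.1 and 208 CPM in overlap, 48.7, 29.9 and 86.3 in c-fos and 160, 199 and 56.6 in mCHerry. Its log2 fold change in c-fos against mCHerry was -1.34 ± 0.87 (adjusted p = 0.805 in edgeR), with overlapping groups. Kcnj9, a partner subunit, ranged from 0 to 78.4 CPM in overlap, 33.6 to 158 in c-fos and 59.3 to 321 in mCHerry. Kcnj3, which usually joins these subunits in forebrain channels, had only 18 counts in all.

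Kcnj13, named here after its values were seen, had 183, 60.0 and 191 CPM in overlap libraries, 9.74, 52.3 and 33.8 in c-fos and 82.1, 0 and 0 in mCHerry. All overlap libraries lay above all c-fos libraries, where 3.96% of all genes did, with a log2 fold change of 2.09 ± 1.37 (adjusted p = 0.959 in edgeR). Kcnj13 lies within Gigyf2 on the opposite strand. Use of strand in counting is not known, so reads of Gigyf2 could have been counted with it. Kcnj8, the pore of the ATP-sensitive channel of pericytes and smooth muscle, had 118, 101 and 25.4 CPM in overlap, 19.5, 56.1 and 52.5 in c-fos and 0, 18.9 and 28.3 in mCHerry. Its log2 fold changes were 2.38 ± 1.34 in overlap against mCHerry and 1.5 ± 1.31 in c-fos against mCHerry, with adjusted p of 0.463 and 0.897 in edgeR. Scaled to library totals, all overlap and all c-fos libraries lay above all mCHerry libraries, while with TMM they did not. The share of all genes separated under library totals was not computed, and c-fos 1 held only 2 counts of Kcnj8, under the floor of 3. The 10 endothelial and mural markers summed to 262 to 600 CPM in overlap, 302 to 736 in c-fos and 434 to 568 in mCHerry. All had counts in some library, but only 6 did in overlap, 9 in c-fos and 8 in mCHerry. In overlap, Flt1 alone had 105, 263 and 301 CPM. Abcc9, the sulfonylurea receptor that pairs with Kcnj8 in mural cells, had 15 counts in all and 0 in overlap. The astrocytic Kcnj10 had 7 counts, 6 of them in c-fos 3.

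The two-pore genes held the fold change with the smallest unadjusted p in c-fos against mCHerry, that of Kcnk2, and it came from 1 library. Kcnk2 encodes a mechanosensitive and lipid-sensitive leak channel. It had 157, 198 and 59.3 CPM in overlap libraries, 87.6, 97.2 and 60.0 in c-fos and 22.8, 24.2 and 1670.2 in mCHerry. All overlap and c-fos libraries lay above mCHerry 1 and mCHerry 2 and below mCHerry 3, which held 70.3% of the gene's summed level. The log2 fold change was -2.79 ± 1.22 in c-fos against mCHerry and -2.04 ± 1.19 in overlap against mCHerry, with adjusted p of 0.576 and 0.476 in edgeR. Without mCHerry 3 the signs turned, to 1.73 ± 1.14 and 2.49 ± 1.18, with adjusted p of 1.00 and 0.492. Limma-voom with all libraries also gave positive values, 0.65 and 1.17. Kcnk2 overlaps the spans of 2900042K21Rik and Pdcd5-ps on its own strand, whose reads could have been counted with it.

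Because c-fos is a subunit of the transcription factor AP-1, the promoter windows of the Kcn genes were searched for TGANTCA. This pattern, taken here as the AP-1 motif, reads the same on both strands. It allows any base at N and is looser than a motif that fixes that base. The windows are RefSeq's, build GRCm38.p6, from 250 bases before to 50 after each start, and were matched by symbol for 67 of the 92 genes in 92 windows. The motif stood in 4 of these windows, 4.35%, against 7.81% of all 32851 windows of the table. The cyclic AMP response element TGACGTCA stood in 0 of the 92, against 1.79% of all. Of the 30 genes in the fit, 19 had a window, and Kcnk2 was the only one of them with the AP-1 motif. The 3 stretches from Kcn genes with counts are shown, with the motif in capitals and 30 bases on either side. Among the 67 genes with a window, they are where this pattern meets a detected gene. The base at N is C in the Kcnk2 and Kcnip3 stretches and T in the Kcnip4 stretch. All lie on the minus strand. The Kcnk2 stretch is chr1:189344282-189344348, with the motif 126 to 120 bases before the start. The Kcnip3 stretch is chr2:127522180-127522246, with the motif 122 to 116 bases before the start. The Kcnip4 stretch is chr5:49285705-49285771, with the motif 82 to 76 bases before the start. The fourth, Kcne3, had no counts.
Kcnk2: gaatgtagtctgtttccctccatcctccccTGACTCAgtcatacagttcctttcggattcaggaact
Kcnip3: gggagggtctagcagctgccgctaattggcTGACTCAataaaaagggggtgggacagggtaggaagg
Kcnip4: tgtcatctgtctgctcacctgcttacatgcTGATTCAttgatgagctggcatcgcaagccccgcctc
A match of letters is a description and shows no binding.

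Kcnk3, an acid-sensitive leak channel, had 91.5, 13.8 and 38.1 CPM in overlap, 77.9, 142 and 101 in c-fos and 27.4, 37.7 and 47.2 in mCHerry. It was the only one of the 30 genes with all c-fos libraries above all mCHerry libraries, and none lay below, where 9.02% and 6.82% of all genes did. This gave a log2 fold change of 1.53 ± 1.02 (adjusted p = 0.814 in edgeR), with 1.24 to 1.69 as single libraries were left out. In overlap against c-fos it was -1.24 ± 1.02, and -2.04 ± 1.09 without overlap 1, the only overlap library above 50 CPM. Kcnk9, the closely related acid-sensitive channel with which Kcnk3 can pair, had 105, 171 and 89.0 CPM in overlap, 136, 265 and 56.3 in c-fos and 201, 280 and 189 in mCHerry. All overlap libraries lay below all mCHerry libraries with TMM, but not when scaled to library totals. Kcnk16, a channel best known from pancreatic beta cells, had 13.1, 32.3 and 106 CPM in overlap, 0, 59.8 and 3.75 in c-fos and 4.56, 0 and 387 in mCHerry. Its highest library, mCHerry 3, was the one with the second highest insulin level, and overlap 1, the one with the highest, had 13.1 CPM of Kcnk16. Of the 8 beta cell genes, 7 had counts in overlap, 6 in c-fos and 7 in mCHerry, with Pdx1 at 0 throughout. The list summed to 805 to 25306 CPM in overlap, 1198 to 1373 in c-fos and 366 to 16372 in mCHerry. Its part in the Kcnk16 values was not tested.

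Kcnma1, which encodes the large-conductance calcium-activated channel that repolarises spikes, was the most counted Kcn gene, with 767 counts or 10.3% of the family. It had 275, 364 and 318 CPM in overlap libraries, 273, 415 and 188 in c-fos and 711, 558 and 377 in mCHerry. All overlap libraries lay below all mCHerry libraries, and c-fos 2 alone of the c-fos libraries reached the mCHerry range. The log2 fold change was -0.78 ± 0.52 in overlap against mCHerry and -0.91 ± 0.52 in c-fos against mCHerry, with adjusted p of 0.532 and 0.746 in edgeR. Both comparisons use the same mCHerry libraries. Between overlap and c-fos it was 0.13 ± 0.52. When scaled by the 200 most abundant genes instead, the overlap value against mCHerry was -0.02 ± 0.50, and with library totals the groups were no longer separated.

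Kcnn2, a small-conductance channel subunit of the afterhyperpolarisation, had 0, 189 and 526 CPM in overlap libraries, 9.74, 41.1 and 37.5 in c-fos and 45.6, 53.9 and 18.9 in mCHerry. Overlap 2 and overlap 3 lay above all other libraries and overlap 1 below them. Its fold change in log2 was 2.56 ± 1.15 against mCHerry and 2.95 ± 1.17 against c-fos, with adjusted p of 0.332 and 0.943 in edgeR. Without overlap 3 it was 1.23 ± 1.34 and 1.69 ± 1.34. Kcnn4, the intermediate-conductance channel known from blood cells and microglia, had 13.1, 277 and 12.7 CPM in overlap, 48.7, 7.48 and 18.8 in c-fos and 68.4, 137 and 47.2 in mCHerry. In overlap against c-fos the log2 fold change was 2.13 ± 1.27, and -0.88 ± 1.43 without overlap 2. In c-fos against mCHerry it was -1.86 ± 1.26. Microglial markers summed to 221 to 602 CPM in overlap, 176 to 662 in c-fos and 167 to 392 in mCHerry. Of the 10, 9 had counts in some library and P2ry12 was at 0. Within groups, 5 had a count in overlap, 8 in c-fos and 8 in mCHerry. In overlap 1, Csf1r alone had 445 CPM. The part of these markers in the Kcnn4 values was not tested. Kcnt1, a sodium-activated channel, had 157, 50.7 and 136 CPM in overlap, 117, 48.6 and 116 in c-fos and 164, 113 and 179 in mCHerry, and its highest library held 16.6% of its summed level, the smallest such share among the 30 genes.

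Kcnu1 encodes the pH-sensitive Slo channel known from sperm, and the labels name spermatocytes. It had 0 counts in overlap, 12 in c-fos, all in c-fos 3, and 45 in mCHerry, of which 32 were in mCHerry 3. A floor of 3 counts over the 3 libraries of a group was used, which covers counting error only and not the spread among libraries. By it Kcnu1 was at least 11.4-fold lower in overlap than in mCHerry, and at least 3.88-fold lower when mCHerry 3 was left out. With no filter on low counts edgeR did not call it there (log2 fold change -7.57 ± 2.26, adjusted p = 0.0574). Of the 10 spermatocyte genes 7 had counts in some library, with 5 in overlap, 6 in c-fos and 5 in mCHerry. The list summed to 106 to 178 CPM in overlap, 89.7 to 180.1 in c-fos and 18.9 to 123 in mCHerry. In mCHerry 3, the library with most Kcnu1 counts, that sum was the lowest of the 9.

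Of the auxiliary genes, Kcnab1, a Kv beta subunit, and Kcnmb4, the neuronal beta subunit of the Kcnma1 channel, entered the fit. Kcnab1 had 39.2, 32.3 and 106 CPM in overlap, 48.7, 116 and 15.0 in c-fos and 41.0, 135 and 37.7 in mCHerry. Kcnmb4 had 26.2, 32.3 and 42.4 CPM in overlap, 38.9, 52.3 and 93.8 in c-fos and 50.2, 32.3 and 18.9 in mCHerry. With TMM neither gene separated any groups, while scaled to library totals all overlap libraries lay below all c-fos libraries for Kcnmb4. The share of all genes separated under that scaling was not computed. The calcium sensors that bind Shal-type subunits were sparse. Kcnip2 had 49 counts in overlap, with 48 of them in overlap 3, against 4 in c-fos and 0 in mCHerry. By the same floor that is at least 21.5-fold higher in overlap than in mCHerry, but without overlap 3 only 1 count is left and no bound can be given. Kcnip3 had 5, 22 and 13 counts in overlap, c-fos and mCHerry, and all 22 of its c-fos counts lay in c-fos 3. Kcnab3 had 0 counts in overlap and c-fos and 26 in mCHerry, in 2 of its libraries.

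Single libraries carried several of these genes. A gene with equal levels in the 9 libraries would hold 11.1% of its summed level in each. Among the 30 genes in the fit, the highest library held 16.6 to 70.3%, with a median of 27.6%, against a median of 27.9% over all 7959 genes. In 5 of the 30, or 16.7%, it held over 50%, against 8.91% of all genes. These 5 were Kcnk2, Kcnk16 and Kcnd3 (mCHerry 3), Kcna7 (overlap 1) and Kcnn2 (overlap 3). Outside the fit, Kcnh5, an ether-a-go-go type channel, had 111 counts in mCHerry 3, 14 in overlap 3 and 0 in the other 7 libraries. With no filter on low counts, edgeR called Kcnh5 in c-fos against mCHerry (log2 fold change -9.15 ± 1.65, adjusted p = 1.94e-05) and in overlap against mCHerry (-3.95 ± 1.15, 0.0449), and Kcnd3 in overlap against mCHerry (-3.61 ± 1.04, 0.0430). That setting tested 81 Kcn genes among 26012 genes, of which it called 253 in c-fos against mCHerry and 344 in overlap against mCHerry. Without mCHerry 3 and with no filter, 0 Kcn genes were called in any comparison.

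**Figure D4:**
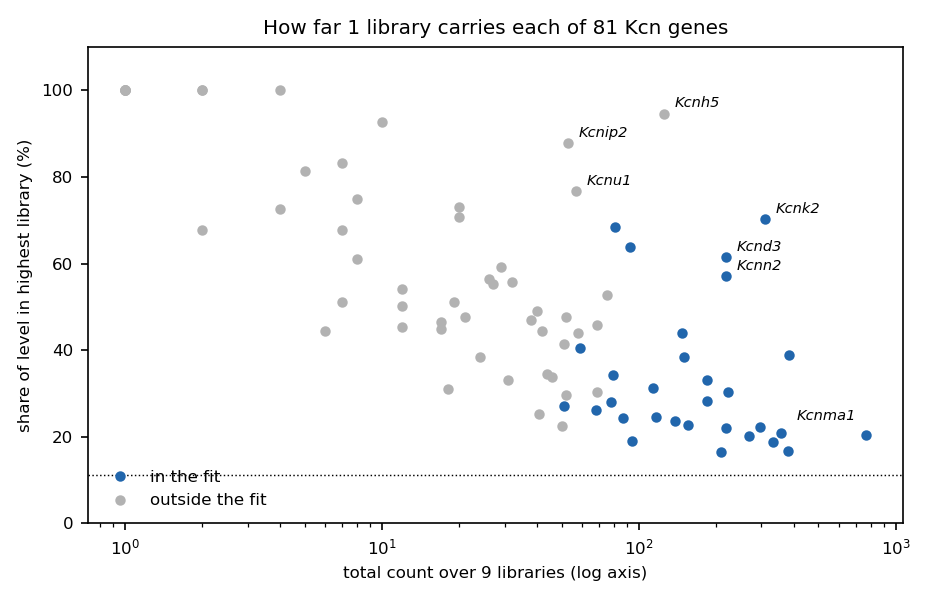
Share of each gene's summed TMM-scaled level held by its highest library (percent) against its total count over 9 libraries (log axis) for the 81 Kcn genes with counts. The dotted line marks the 11.1% of an even spread, Kcnma1 stands at 20.5%, and Kcnh5, with 125 counts, stands at 94.6%.

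The 62 genes outside the fit held 1376 counts. The most counted of them after Kcnh5 and Kcnq5 were Kcnc4, Kcnj4, Kcnk7 and Kcnu1. Kcnc4, a Shaw-type subunit, had 26.2, 18.4 and 25.4 CPM in overlap, 0, 18.7 and 30 in c-fos and 77.5, 43.1 and 104 in mCHerry. Kcnj4, a strong inward rectifier of forebrain neurons, had 13.1, 0 and 0 CPM in overlap, 0, 15.0 and 30 in c-fos and 41.0, 116 and 37.7 in mCHerry. For both, every mCHerry library lay above all libraries of both other groups. Of the genes tested, which do not include Kcnc4 and Kcnj4, 11.0% had overlap and 6.82% had c-fos below mCHerry. The share with both below was not computed. Scaled to library totals the separation held for Kcnc4 but not for Kcnj4, at 20.1 CPM in mCHerry 3 against 26.3 CPM in c-fos 3. With no filter on low counts edgeR called neither, at adjusted p of 0.665 and 0.684 for Kcnc4 and 0.469 and 0.725 for Kcnj4 in overlap and c-fos against mCHerry. Kcnk7, a two-pore gene without known current, had 30, 16 and 12 counts in overlap, c-fos and mCHerry.

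Of the 30 genes, 20 had negative fold changes in each comparison with mCHerry, a count that varied with the libraries and the scaling. In overlap against mCHerry 20 of 30 were negative with a median log2 fold change of -0.26, where 51.3% of all genes tested were negative with a median of -0.05. In c-fos against mCHerry 20 of 30 were negative with a median of -0.45, against 50.3% and -0.01 for all genes. The overlap median was 0.0011 without mCHerry 1, over 40 genes, -0.86 without overlap 2, over 42, and -0.02 with DESeq2 size factors, over the 30. The filter was run anew when a library was left out, so those medians cover a changed set of genes. The c-fos median was -0.13 without mCHerry 3, with 18 genes positive and 21 negative, and -0.13 with limma-voom. Both comparisons share the mCHerry libraries, and neither lean is particular to the family, since of the 200 most abundant genes 180 and 169 were negative, with medians of -0.76 and -0.37. Scaling by those 200 genes instead moved the median of all genes to 0.70 and 0.35, and the Kcn medians were then 0.51 and -0.11. In overlap against c-fos 16 of 30 were positive with a median of 0.10, and 50.8% of all genes with a median of 0.02. All 10 glutamatergic neuron markers had counts in some library, and 9 did within each group. They summed to 523 to 1458 CPM in overlap, 1042 to 1656 in c-fos and 1963 to 2788 in mCHerry. Every mCHerry library lay above all others in this sum with TMM, whereas scaled to library totals the ranges overlapped, at 444 to 1216, 981 to 1483 and 1046 to 2411 CPM in the same order. The part of these cells in the Kcn values was not tested.

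By class, the 15 Kv genes had a median of -0.26 in overlap against mCHerry, -0.19 in c-fos against mCHerry and -0.09 in overlap against c-fos. The 4 calcium-activated and Slo genes were all negative in c-fos against mCHerry (median -0.80) and all positive in overlap against c-fos (median 1.20). Those positive signs did not all hold, since Kcnma1 stood at -0.04 with upper quartile scaling, -0.10 without c-fos 3 and -0.02 without overlap 2, where Kcnn4 stood at -0.88. These comparisons share the c-fos libraries, and in overlap against mCHerry 2 of the 4 were positive. In the order overlap against mCHerry, c-fos against mCHerry and overlap against c-fos, the 5 two-pore genes had medians of -0.87, -0.55 and -0.33. The 4 Kir genes had 1.05, -0.29 and 0.99 in that order. Without mCHerry 3 the two-pore medians against mCHerry turned to 1.13 for overlap and 0.26 for c-fos, over 7 genes. With limma-voom they were -0.18 and 0.65, and the Kir medians were 0.94 and 0.93.

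**Figure D5:**
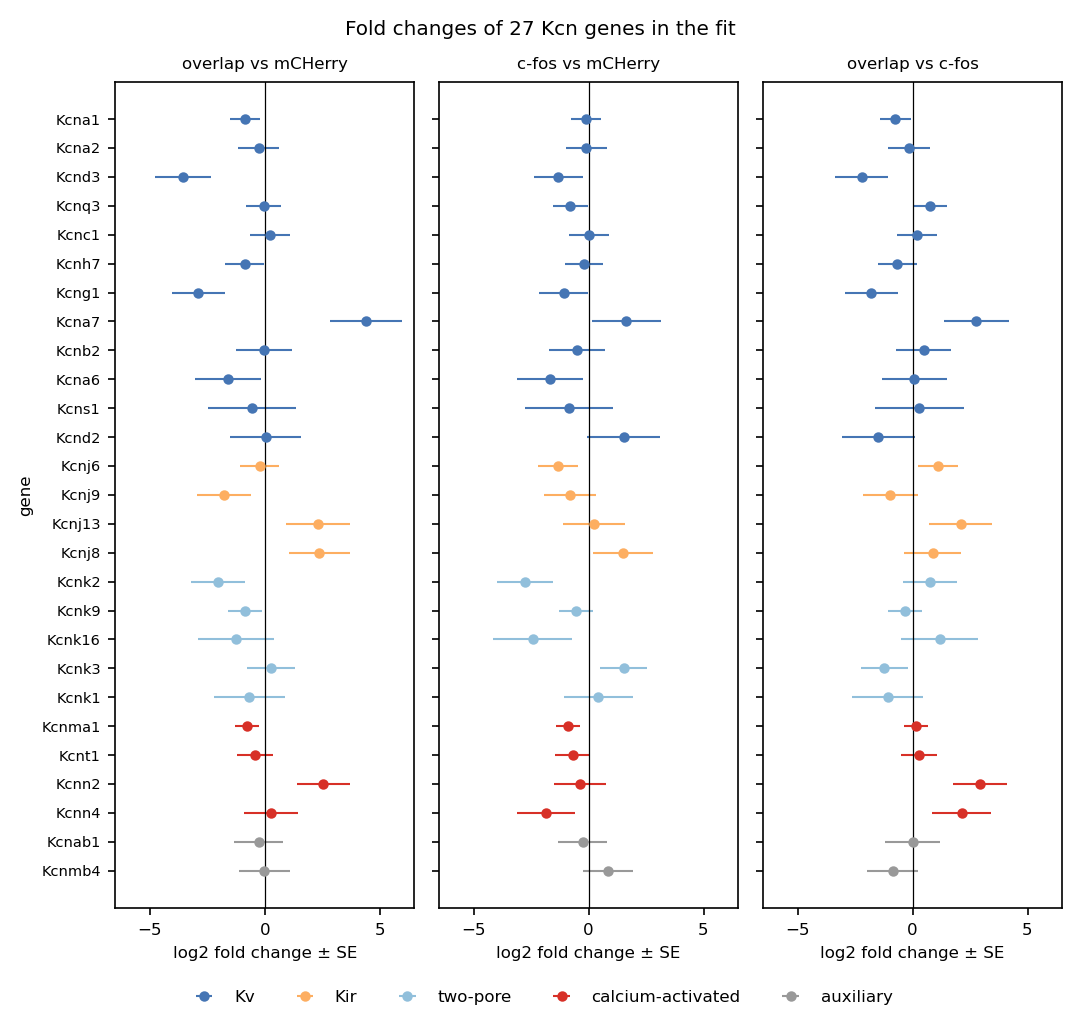
Log2 fold change with its standard error for 27 of the 30 Kcn genes in the fit, coloured by class, in overlap against mCHerry, c-fos against mCHerry and overlap against c-fos. Bars are 1 standard error to each side. The genes farthest from 0 are Kcna7 at 4.41 and Kcnd3 at -3.55 in overlap against mCHerry, and Kcnk2 at -2.79 and Kcnn2 at 2.95 in the other comparisons.

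A list of 34 partner genes holds proteins known to bind, cluster or regulate these channels, of which 26 were in the fit and 0 were called in any comparison by edgeR. At an unadjusted p under 0.05 it had 3 genes in overlap against mCHerry, 1 in c-fos against mCHerry and 0 in overlap against c-fos. Of all genes tested 14.0%, 7.94% and 5.10% did, in that order. Groups did not overlap for 3, 6 and 4 of the 26 in that order, against 17.4%, 15.8% and 12.6% of all genes. All of these lay lower in the group named first, where 11.0%, 6.82% and 8.61% of all genes did. Of the 200 most abundant genes 99, 63 and 58 lay lower in that way. In overlap against mCHerry 21 of 26 were negative (median -0.47), and in c-fos against mCHerry 15 of 26 (median -0.35). Of all genes 51.3% and 50.3% were negative, and of the 200 most abundant genes 180 and 169 were, so neither lean is particular to the list. Dlg4, the scaffold that clusters Shaker-type and inward rectifier channels, had 1021 ± 405 CPM in overlap, 1517 ± 330 in c-fos and 2050 ± 181 in mCHerry, with a log2 fold change of -1.0 ± 0.33 in overlap against mCHerry (adjusted p = 0.240 in edgeR) and -0.25 ± 0.30 when scaled by the 200 most abundant genes. Cntnap2, which holds Shaker-type channels beside the node of Ranvier, had 249 ± 209 CPM in overlap, 136 ± 93.6 in c-fos and 57.4 ± 41.3 in mCHerry (2.11 ± 0.91 in overlap against mCHerry). Adam22, part of the axonal Shaker complex, stood at -2.20 ± 0.96 in that comparison. Without overlap 2, Cntnap2 stood at 1.10 ± 1.00 and Adam22 at -3.61 ± 1.17. Dpp10, a Shal-type auxiliary protein, stood at -2.01 ± 1.02 in c-fos against mCHerry and at -0.63 ± 1.20 without mCHerry 3. None of these passed over all genes.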

How the data were processed

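The authors deposited 1 table of whole-number counts per Ensembl gene and library, with no normalization. Processing notes of the submitters list featureCounts, Trim Galore, UMI-tools and STAR with build mm9, and neither versions, settings, order, handling of molecular identifiers nor use of strand are stated in the sources used here. Intervals and floors cover counting error only. Symbols were found for 54723 of 54838 identifiers, and the rest held 0.222% of counts. Gene types and overlaps came from a GRCm38 annotation, in which 42 of the 92 genes overlap another gene. Overlap was judged by whole gene spans, introns included. Whether exons overlap, so that reads could be mixed, was not checked.

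All counts entered 1 fit with edgeR 4.0.16 in R 4.3.3 (TMM, filterByExpr with a minimum count of 10, common dispersion 0.735, Benjamini-Hochberg over 7959 genes, two-sided). Each standard error is the absolute log2 fold change over the root of F. Levels used the fit's effective library sizes, except where library totals are named. DESeq2 1.42.0 and limma 3.58.1 (voom) were alternatives. The fit was also run on simulated data as a check of the code. How many true changes it finds at the spread of these data is not reported here. Thinning used 20 draws. Members, lists and tests were chosen with earlier results of these data known. Genes were named by rule, namely the 12 with the highest mean level, up to 4 per direction and comparison by unadjusted p, the 6 most counted outside the fit and up to 3 partner genes per comparison by unadjusted p. Some genes that enter the counts and that the rule names are not reported here or drawn by name. Those further named to complete a channel family were chosen after their values were seen. Alternatives covered scaling, filter, test, samples, a replicate block and libraries left out.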

Additional observations from a re-analysis of the deposited data

How the results depend on the processing

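Of the 92 genes, 62 had too few counts for the fit, and the smallest standard error of a Kcn gene was 0.52 on the log2 scale. No pairing of libraries by replicate number was detected, though with a spread this wide a pairing could have been missed. Deviations of the 9 same-numbered pairs correlated at -0.03 to 0.04, and 3 of 9 libraries correlated best with their own number. With a replicate block edgeR called 10 genes in overlap against mCHerry and 3 in overlap against c-fos, 0 of them Kcn genes.

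Calls of Kcn genes were 0 under every alternative other than no filter on low counts, which called 1 in c-fos against mCHerry, 2 in overlap against mCHerry and 2 for any group difference. That setting tested 81 Kcn genes among 26012 genes in all. Over all genes it called 253 in c-fos against mCHerry, 344 in overlap against mCHerry and 41 in overlap against c-fos. The share of all genes it called for any group difference is not given here. In overlap against mCHerry the count over all genes was 0 with upper quartile scaling, DESeq2 size factors, scaling by the 200 most abundant genes, the stricter filter, the groups of the comparison alone, and mCHerry 3 and overlap 1 left out. DESeq2 called 180 and limma-voom 37 there, 3 and 4 in c-fos against mCHerry, and 6 and 3 in overlap against c-fos. Upper quartile scaling, the stricter filter and leaving out mCHerry 3 and overlap 1 called 1 gene in c-fos against mCHerry, and the last and the groups alone 1 in overlap against c-fos. Leaving out 1 library gave 2 to 20 calls in overlap against mCHerry, 0 to 1 in c-fos against mCHerry and 0 to 9 in overlap against c-fos.

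The fold change of Kcnk2 turned to 1.72 in c-fos against mCHerry and 2.38 in overlap against mCHerry without mCHerry 3 and overlap 1, and to 0.65 and 1.17 with limma-voom. Leaving out 1 library gave -3.35 to 1.73 and -2.59 to 2.49. That of Kcnma1 in overlap against c-fos was -0.042 with upper quartile scaling and -0.10 to 0.50 with 1 library left out, and that of Kcnn4 was -0.88 to 2.90. Thinning lowered the genes detected in mCHerry to 45.1. Without Kcnma1 the Kv share in mCHerry was 57.2%, and the calcium-activated share 7.21% in c-fos and 9.72% in mCHerry. The cause of these shifts was not tested. Scaling of levels by library totals and the share held by the highest library were chosen after seeing the data.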
